A study of Homo sapiens with 21 samples.

Results

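The circular RNAs (circRNAs) hsa_circ_2642, hsa_circ_2643, hsa_circ_10547, hsa_circ_10548 and hsa_circ_16673 were followed through 21 libraries of 3 human lung cell lines. They are 5 of the 124082 circRNAs in the table, and all 5 were among the 9175 with enough reads to be tested. They were picked by name as abundant circRNAs of cancer lines that are scarce in NL20, so their levels in NL20 and in the cancer lines chose them and are given here as a description, without a test. The data go against that name for hsa_circ_10548: it had 96 reads in NL20 and no read in any of the 6 PC-9 libraries. Its high levels were those of the NCI-H1975 groups.

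The libraries fall into 7 groups of 3. Both cancer lines, PC-9 and NCI-H1975, carry a mutant EGFR. Gefitinib-resistant PC-9 cells, kept in 1 µM gefitinib, an EGFR tyrosine kinase inhibitor, are set against PC-9 cells without a resistance code. In NCI-H1975, the groups are cells resistant to osimertinib, a later EGFR inhibitor, kept in 1 µM of it, cells transfected with FASN, cells transfected with the plasmid pCMV6, and cells without a resistance or plasmid code. FASN encodes fatty acid synthase. Both transfected groups received the selection agent G418 at 50 µg/ml. NL20, an immortalized and nontumorigenic line of the bronchial epithelium, was the normal control. All cells grew in RPMI with fetal bovine serum. Whether the libraries of a group were separate cultures, and whether a resistant or transfected line is 1 clone, is not in the labels, so p-values here measure a spread between libraries that may be technical.

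A circRNA forms when the splicing machinery joins the end of an exon to the start of the same or an upstream exon, which closes the transcript into a ring. The ring has no free ends for exonucleases to attack, so many circRNAs outlast the linear transcripts of their gene. Several circRNAs can arise from 1 gene when the back-splice uses different exons, and the amounts of such rings need not follow each other. The deposited table numbers its circRNAs and pairs the numbers with no gene or position, so the host genes of the 5 are not given here. In bulk libraries such as these, fewer cells with a circRNA and fewer rings per cell cannot be told apart.

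The libraries held between 95808 and 203079 reads, of which 73.6% to 79.3% were in the tested circRNAs. Levels are given as CPM, counts per M (mega) reads in the tested circRNAs, with library sizes scaled by edgeR's TMM method. Osimertinib-resistant replicate 2 stood apart from its group. It held 15244 distinct circRNAs, and hsa_circ_11052, the most abundant circRNA of the table, took 11.4% of its reads against 6.98% and 7.66% in replicates 1 and 3. The changes of the members and of the ratios in osimertinib-resistant cells are therefore also given without it.

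hsa_circ_2642 was highest in PC-9, lower in NCI-H1975 and not read in NL20. It stood at 2482, 2170 and 2810 CPM in gefitinib-resistant PC-9 and at 2673, 2188 and 3035 CPM in PC-9, where it ranked 19 of all circRNAs by level. All 6 PC-9 libraries lay above all 12 NCI-H1975 libraries. The NCI-H1975 levels were 867, 390 and 534 CPM in osimertinib-resistant cells, 752, 1035 and 1282 CPM in FASN cells, 1199, 1443 and 1418 CPM in pCMV6 cells and 970, 856 and 1000.1 CPM in cells without a code. NL20 had 0 reads of it among 536377, which allows a share of up to 0.000559%. Set against a floor of 3 reads over the 3 NL20 libraries, its level was at least 325.6-fold higher in gefitinib-resistant PC-9, at least 335.5-fold higher in PC-9 and at least 123.7-fold higher in NCI-H1975. The smallest such bound was in osimertinib-resistant cells, at least 79.2-fold higher.

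hsa_circ_2643 had fewer reads than hsa_circ_2642 in 17 of the 18 cancer libraries, and like it was not read in NL20 (0 of 536377 reads, the same limit). It stood at 937, 899 and 1042 CPM in gefitinib-resistant PC-9 and at 1321, 1283 and 1131 CPM in PC-9. In NCI-H1975 it stood at 414, 253 and 743 CPM in osimertinib-resistant cells, 345, 288 and 395 CPM in FASN cells, 1018, 425 and 949.7 CPM in pCMV6 cells and 403, 339 and 395 CPM in cells without a code. The PC-9 and NCI-H1975 ranges overlapped through pCMV6 replicates 1 and 3. Its lower bounds against NL20 ran from at least 44.1-fold in FASN cells to at least 164.5-fold in PC-9. Of the 9175 tested circRNAs, 32 (0.349%) were read in all 18 cancer libraries and in no NL20 library, and by reads hsa_circ_2642 ranked 1 and hsa_circ_2643 ranked 2 among these.

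The circRNA hsa_circ_10547 was read in all 21 libraries and reached the highest CPM of the 5. In gefitinib-resistant PC-9 it stood at 3887, 4044 and 4724 CPM, rank 6 of all circRNAs there, and in PC-9 at 2663, 2385 and 2476 CPM. The NCI-H1975 levels were 444, 390 and 372 CPM in osimertinib-resistant cells, 740.0, 549 and 678 CPM in FASN cells, 735, 799 and 924 CPM in pCMV6 cells and 893, 945 and 758 CPM in cells without a code. NL20 had 30.1, 14.0 and 42.6 CPM, from 11 reads in all. Every cancer library lay above every NL20 library, and every PC-9 library above every NCI-H1975 library. Over pooled reads the ratio to NL20 was 150.9 in gefitinib-resistant PC-9 (95% exact interval 84.0 to 303.1), 89.1 in PC-9 (49.5 to 179.3) and 30.8 in NCI-H1975 (17.0 to 62.3). These intervals and all floors here treat reads as independent and cover counting error only. Variation between libraries and reads copied by PCR are not covered.

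Its neighbour in number, hsa_circ_10548, had another pattern. It had 0 reads in gefitinib-resistant PC-9, which allows a share of up to 0.000866%, and 0 reads in PC-9, which allows up to 0.000697%. In NCI-H1975 it stood at 746, 1010.2 and 1029 CPM in osimertinib-resistant cells, 1196, 1872 and 1430.2 CPM in FASN cells, 1561, 1456 and 1262 CPM in pCMV6 cells and 1594, 1212 and 1161 CPM in cells without a code. NL20 stood between the cancer lines, with 143, 391 and 179 CPM. All 12 NCI-H1975 libraries lay above all NL20 libraries, and all 6 PC-9 libraries below them. Over pooled reads, the NCI-H1975 level was 5.37 times that of NL20 (95% exact interval 4.30 to 6.77), and the PC-9 level was at least 25.9-fold lower than that of NL20. The NL20 libraries varied beyond counting error, which that interval does not cover. Of the 9175 tested circRNAs, 20 (0.218%) were read in all 15 NCI-H1975 and NL20 libraries and in no PC-9 library, and hsa_circ_10548 had the most reads of these (rank 1).

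hsa_circ_16673 averaged highest in the resistant groups of both cancer lines, where its libraries were also widely spread, and was scarce in NL20. It stood at 1627, 1304 and 2572 CPM in gefitinib-resistant PC-9 and at 949, 1006 and 869 CPM in PC-9. In NCI-H1975 it stood at 3288, 666 and 2354 CPM in osimertinib-resistant cells, 1172, 1197 and 937 CPM in FASN cells, 961, 1173 and 794 CPM in pCMV6 cells and 1191, 1079 and 952 CPM in cells without a code. NL20 had 7.54, 14.0 and 8.52 CPM, from 4 reads. Every cancer library lay above every NL20 library. Its ratio to NL20 was 104.9 in NCI-H1975 (95% exact interval 40.6 to 387.0) and 93.7 in PC-9 (36.2 to 346.0), with wide intervals because of the 4 reads.

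**Figure D1:**
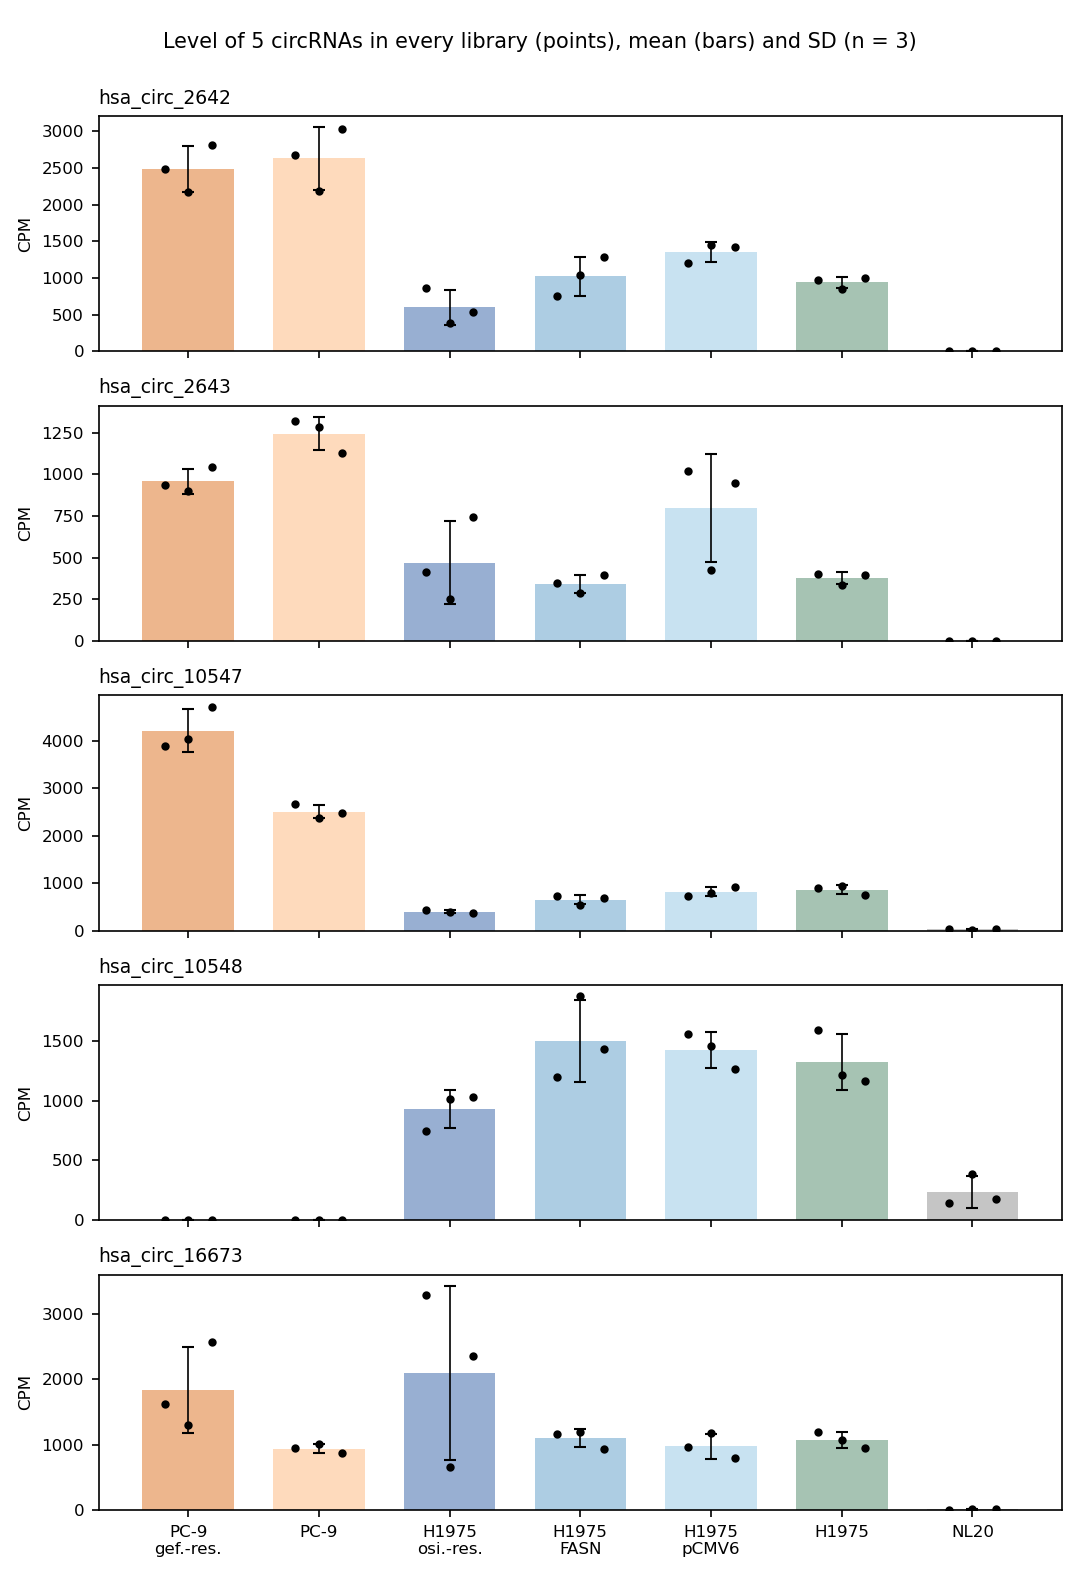
Level in CPM (vertical axis, from 0, a scale for each panel) of the 5 circRNAs in every library; points are libraries, bars the mean of a group and error bars the SD of 3 libraries, with gefitinib-resistant PC-9 and PC-9 on the left, then the 4 NCI-H1975 groups, then NL20. The panels of hsa_circ_2642, hsa_circ_2643 and hsa_circ_10547 are highest in PC-9 groups, hsa_circ_10548 is at 0 in both PC-9 groups, and the points of hsa_circ_16673 are widely spread in osimertinib-resistant cells (3288, 666 and 2354 CPM).

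Of the 5, 4 had every cancer library above every NL20 library, as did 1.17% of all tested circRNAs. Nothing is read from that count, since the levels in NL20 chose the 5. Together they took 0.726% ± 0.101 of the reads in gefitinib-resistant PC-9 (SD, n = 3), 0.548% ± 0.0540 in PC-9, 0.342% ± 0.0348 in NCI-H1975 and 0.0201% ± 0.00835 in NL20. The NL20 share was mostly hsa_circ_10548, with 96 of the 111 reads.

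The 5 also differed in how much libraries of a group varied beyond counting error. The chi-square of a circRNA's reads over the 3 libraries of a group, per degree of freedom, averages 1 where counting error alone separates them. With 3 libraries it scatters widely around that, so the smaller excesses, such as 2.66 and 3.69, are weak signs of further variation. For hsa_circ_10547 it lay between 0.350 and 1.43 in 6 groups and reached 4.11 in gefitinib-resistant PC-9. For hsa_circ_2643 it lay between 0.365 and 0.802 in 4 groups, but was 12.6 in osimertinib-resistant cells and 10.4 in pCMV6 cells. The value for hsa_circ_2642 was 9.41 in osimertinib-resistant cells, 7.66 in PC-9, 5.57 in FASN cells and 3.69 in gefitinib-resistant PC-9. It was 1.13 in pCMV6 cells and 0.708 in NCI-H1975. That for hsa_circ_10548 was 10.1 in NL20, 7.41 in FASN cells, 4.66 in NCI-H1975 and 2.66 in osimertinib-resistant cells, against 1.3 in pCMV6 cells. For hsa_circ_16673 it was 74.9 in osimertinib-resistant cells and 21.1 in gefitinib-resistant cells, against 0.518 in PC-9 and 1.53 in NCI-H1975. Without osimertinib-resistant replicate 2 the chi-square in that group was 15.8 for hsa_circ_16673, 9.51 for hsa_circ_2643, 8.15 for hsa_circ_2642, 4.58 for hsa_circ_10548 and 0.651 for hsa_circ_10547. The widest spread of hsa_circ_16673 was therefore in the resistant groups.

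Between the cancer lines, 3 of the 5 had ranges that did not overlap over the 12 NCI-H1975 and 6 PC-9 libraries, against 7.68% of all tested circRNAs in either direction. That comparison is a description, as these levels were part of the choice. Over the pooled reads of the groups without a code, 3 libraries against 3, the level in NCI-H1975 was 0.369 times that in PC-9 for hsa_circ_2642 (95% exact interval 0.323 to 0.420), 0.302 times for hsa_circ_2643 (0.246 to 0.369) and 0.345 times for hsa_circ_10547 (0.301 to 0.395). hsa_circ_10548 was at least 138.9-fold higher in NCI-H1975 than in PC-9. For hsa_circ_16673 the ratio of NCI-H1975 to PC-9 was 1.12 (0.959 to 1.31), and the ranges overlapped. Over all 12 NCI-H1975 and 6 PC-9 libraries, resistant and transfected cells included, the ratio was 0.381 for hsa_circ_2642, 0.434 for hsa_circ_2643, 0.208 for hsa_circ_10547 and 0.990 for hsa_circ_16673, and hsa_circ_10548 was at least 251.5-fold higher.

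The ratio of hsa_circ_2642 to hsa_circ_2643 asks whether these consecutively numbered circRNAs kept a fixed proportion. A ratio of reads within a library needs no library size, but the lengths of the circRNAs are not known here, so it compares reads and not molecules. It was 2.65, 2.41 and 2.70 in gefitinib-resistant PC-9 and 2.02, 1.70 and 2.68 in PC-9. In NCI-H1975 it was 2.10, 1.55 and 0.718 in osimertinib-resistant cells, 2.18, 3.59 and 3.25 in FASN cells, 1.18, 3.39 and 1.49 in the pCMV6 group and 2.40, 2.53 and 2.53 in cells without a code. The lowest ratio, in osimertinib-resistant replicate 3, was the sole one under 1, with 56 reads against 78 (95% exact interval 0.50 to 1.03). In NL20 neither was read, so no ratio exists there.

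By cell line the ratio overlapped: its median was 2.29 over 12 NCI-H1975 libraries (0.718 to 3.59) and 2.53 over 6 PC-9 libraries (1.70 to 2.70). The SD of the ratio was smallest in NCI-H1975 without a code, at 2.49 ± 0.0715 (SD, n = 3), and in gefitinib-resistant PC-9, at 2.59 ± 0.151. The SD was largest in pCMV6 cells, at 2.02 ± 1.20, where replicate 2 lay well above replicates 1 and 3. The chi-square of the pair's reads between libraries per degree of freedom was 9.95 with pCMV6 and 9.24 in osimertinib-resistant cells. Without osimertinib-resistant replicate 2 it was 17.7 in that group. The chi-square was 4.42 in PC-9 without a code and 1.48 in FASN cells. In gefitinib-resistant PC-9 it was 0.211, and in NCI-H1975 without a code 0.0254. These low values show no variation beyond counting error. Each ratio still carries that error, so the small SDs do not show a fixed proportion. In NCI-H1975 replicate 1 alone, the exact interval of the ratio ran from 1.66 to 3.53. In pCMV6 and osimertinib-resistant cells the pair's proportion varied beyond counting error, and to a lesser extent in PC-9 without a code.

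Between groups of a line, 1 of the 5 comparisons of this ratio had ranges that did not overlap. All 3 osimertinib-resistant libraries lay below all 3 NCI-H1975 libraries, with a difference in mean log2 ratio of -0.90 (pseudocount 0.5, exact two-sided permutation p = 0.1, the smallest that 3 against 3 can give, adjusted p = 0.44 over 11 tests). Without osimertinib-resistant replicate 2 the difference was -1.01, and without replicate 3 it was -0.47. In the other comparisons the ranges overlapped. The difference was 0.30 for gefitinib-resistant PC-9 against PC-9 (exact permutation p = 0.3), 0.69 for FASN against pCMV6 (p = 0.3), -0.45 for pCMV6 against NCI-H1975 (p = 0.4) and 0.24 for FASN against NCI-H1975 (p = 0.4). No ratio comparison could pass the threshold in this design, so these p-values say nothing on whether the proportion is stable.

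**Figure D2:**
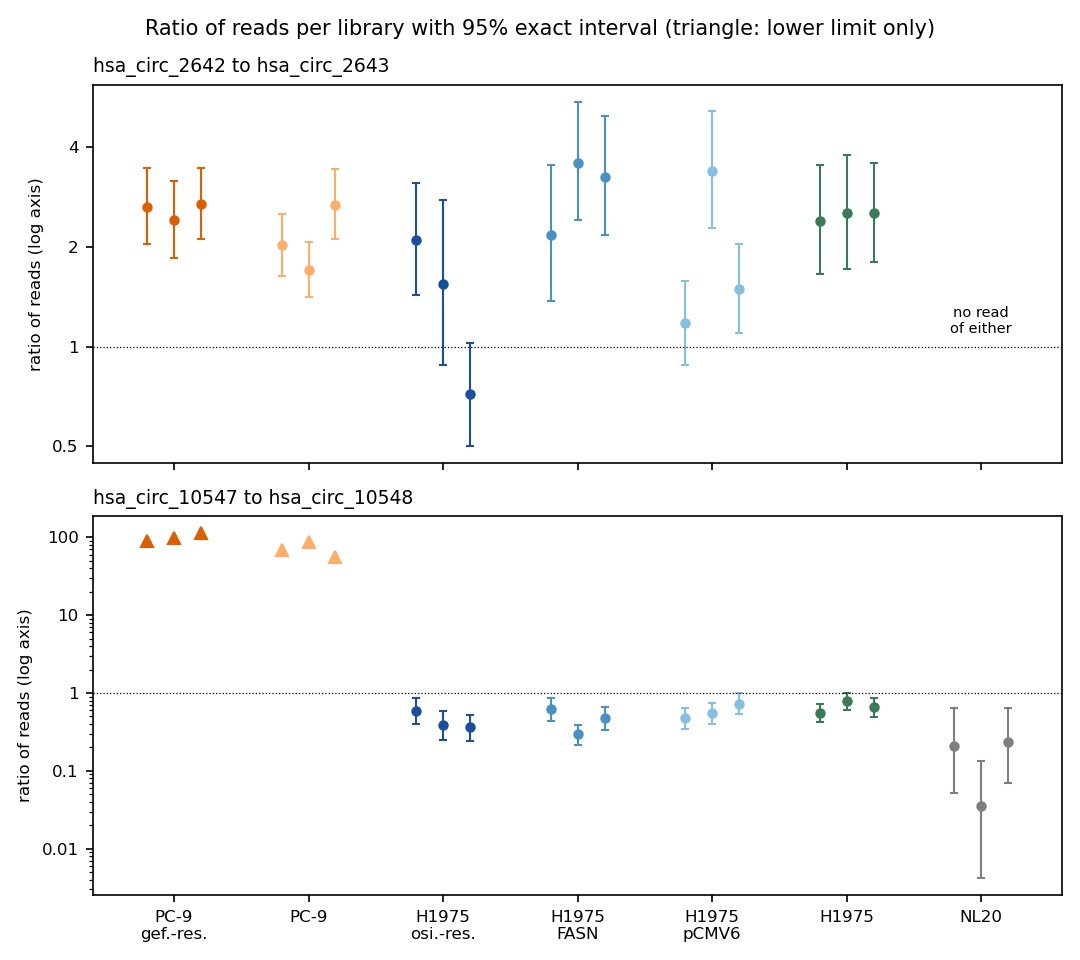
Ratio of reads in each library (log axis) for hsa_circ_2642 to hsa_circ_2643 (top) and hsa_circ_10547 to hsa_circ_10548 (bottom); points are libraries, lines their 95% exact intervals, triangles the lower limit where the second circRNA had no read, and the dotted line a ratio of 1. The top panel is above 1 in 17 of 18 cancer libraries, and the bottom panel is below 1 in every NCI-H1975 and NL20 library and far above 1 in every PC-9 library.

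The ratio of hsa_circ_10547 to hsa_circ_10548 separated PC-9 from the other lines. With no read of hsa_circ_10548, it was at least 372.7 over the 3 gefitinib-resistant libraries and at least 264.3 over the 3 PC-9 libraries, both against a floor of 3 reads. In every NCI-H1975 and NL20 library hsa_circ_10548 had more reads than hsa_circ_10547. The ratio was 0.595, 0.386 and 0.361 in osimertinib-resistant cells, 0.619, 0.293 and 0.474 in FASN cells, 0.471, 0.549 and 0.732 in the pCMV6 group and 0.560, 0.779 and 0.653 in NCI-H1975 without a code. NL20 had 0.211, 0.0357 and 0.238, from 4, 2 and 5 reads of hsa_circ_10547.

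Within NCI-H1975 all 4 comparisons of this ratio had overlapping ranges. The mean ratio was 0.447 ± 0.128 in osimertinib-resistant cells, 0.462 ± 0.163 in FASN cells, 0.584 ± 0.134 in the pCMV6 group and 0.664 ± 0.110 in cells without a code (SD, n = 3 each). The chi-square of this pair's reads between libraries per degree of freedom was 6.17 in FASN cells and 3.23 in NL20. It lay between 1.63 and 2.12 in the other NCI-H1975 groups, and was 3.52 in osimertinib-resistant cells without replicate 2. The difference in mean log2 ratio was -0.59 for osimertinib-resistant against NCI-H1975 (exact permutation p = 0.2, and -0.50 without osimertinib-resistant replicate 2), -0.38 for FASN against pCMV6 (p = 0.5), -0.20 for pCMV6 against NCI-H1975 (p = 0.4) and -0.57 for FASN against NCI-H1975 (p = 0.2). The test of gefitinib-resistant PC-9 against PC-9 could not be made, as both groups had no read of hsa_circ_10548.

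Whether the levels moved with resistance or transfection was tested within each line, where no NL20 library enters the contrast. The tests are edgeR quasi-likelihood tests over all 9175 circRNAs with Benjamini-Hochberg adjustment, called at an adjusted p under 0.05. The spread behind each p is estimated over all 7 groups together and drawn towards that of circRNAs of like abundance. In the osimertinib, pCMV6 and FASN comparisons with NCI-H1975 the same 3 NCI-H1975 libraries are the control, and both FASN and pCMV6 libraries enter a pair of comparisons, so those results are not independent of each other.

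In gefitinib-resistant PC-9, hsa_circ_10547 and hsa_circ_16673 rose. hsa_circ_10547 averaged 4218 ± 445 CPM in gefitinib-resistant cells and 2508 ± 142 CPM in PC-9 (SD, n = 3 each), a log2 change of 0.75 ± 0.19 (SE, edgeR quasi-likelihood adjusted p = 0.00975), or 1.68-fold. hsa_circ_16673 averaged 1834 ± 659 CPM against 942 ± 69.1 CPM, a log2 change of 0.96 ± 0.21 (adjusted p = 0.00142), or 1.94-fold. For both, all 3 resistant libraries lay above all 3 PC-9 libraries. Of the 4 members read in PC-9, 2 were called, against 1.35% of all tested circRNAs. The resistance and the presence of the drug cannot be told apart, as only resistant cells were kept in gefitinib.

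The pair hsa_circ_2642 and hsa_circ_2643 did not pass the test there. hsa_circ_2642 averaged 2487 ± 320 CPM in gefitinib-resistant cells and 2632 ± 425 CPM in PC-9, with overlapping ranges and a log2 change of -0.08 ± 0.19 (adjusted p = 0.958). hsa_circ_2643 averaged 959 ± 74.4 CPM against 1245 ± 101 CPM, with all resistant libraries lower and a log2 change of -0.38 ± 0.25 (adjusted p = 0.625). Ranges of 3 of the 4 did not overlap, against 16.9% of all tested circRNAs in either direction. The call of hsa_circ_10547 was lost when gefitinib-resistant replicate 3 (edgeR quasi-likelihood adjusted p = 0.165) or PC-9 replicate 1 (0.0601), 2 (0.161) or 3 (0.0957) was left out, with log2 changes between 0.68 and 0.80 over the 6 fits. That of hsa_circ_16673 was lost without gefitinib-resistant replicate 3 (log2 change 0.65, adjusted p = 0.316) and with a minimum count of 10 (adjusted p = 0.112), and both were lost with no filter on low counts (adjusted p = 1 and 0.572).

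In osimertinib-resistant NCI-H1975, hsa_circ_10547 fell, and hsa_circ_16673 had a higher mean with overlapping ranges. hsa_circ_10547 averaged 402 ± 37.4 CPM in osimertinib-resistant cells and 865 ± 96.4 CPM in NCI-H1975 (SD, n = 3 each), with all resistant libraries lower. Its log2 change was -1.10 ± 0.22 (SE, edgeR quasi-likelihood adjusted p = 7.59e-05), or 0.466 times the level in NCI-H1975, and -1.09 without osimertinib-resistant replicate 2 (adjusted p = 0.000911). Leaving out any 1 of the 6 libraries kept the call. Of the 5, 2 were called, against 2.52% of all tested circRNAs.

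hsa_circ_16673 averaged 2103 ± 1329 CPM in osimertinib-resistant cells and 1074 ± 120 CPM in NCI-H1975, with a log2 change of 0.98 ± 0.20 (edgeR quasi-likelihood adjusted p = 0.000356), or 1.97-fold. The ranges overlapped: resistant replicates 1 and 3 lay above all NCI-H1975 libraries and replicate 2 below them. Without replicate 2 the log2 change was 1.39 (adjusted p = 3.48e-08). Without replicate 1 it was 0.50 and the call was lost (adjusted p = 0.323). It was also lost with a minimum count of 10 (adjusted p = 0.0590), with no filter (0.403), and when the 6 libraries were fitted alone (0.412). The main SE and p rest on a spread estimated over all 7 groups, not on the wide spread of these resistant libraries alone.

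The other members did not pass the test in osimertinib-resistant cells. hsa_circ_2642 averaged 597 ± 245 CPM against 942 ± 76.2 CPM in NCI-H1975, a log2 change of -0.65 ± 0.21 (edgeR quasi-likelihood adjusted p = 0.0680), and its ranges overlapped through resistant replicate 1. Without that replicate the log2 change was -1.01 (adjusted p = 0.00501), and without replicate 2 it was -0.43 (adjusted p = 0.445). It was also called with no scaling factors (adjusted p = 0.0465), with hsa_circ_11052 removed before scaling (0.0415) and with a minimum count of 10 (0.0460). hsa_circ_2643 averaged 470 ± 250 CPM against 379 ± 35.2 CPM, with overlapping ranges and a log2 change of 0.32 ± 0.27 (adjusted p = 0.671), which was 0.60 without replicate 2 and -0.19 without replicate 3. hsa_circ_10548 averaged 929 ± 158 CPM against 1323 ± 237 CPM, a log2 change of -0.51 ± 0.23 (adjusted p = 0.267), and -0.58 without replicate 2. All its resistant libraries were lower, so 2 of the 5 had ranges that did not overlap, against 17.6% of all tested circRNAs.

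The changes of hsa_circ_10547 in the resistant lines were compared directly. The change in gefitinib-resistant PC-9 exceeded that in osimertinib-resistant NCI-H1975 by 1.85 ± 0.29 on the log2 scale (SE, edgeR quasi-likelihood adjusted p = 2.27e-07). This contrast called 1.77% of all tested circRNAs. Leaving out any 1 of the 12 libraries kept the call, at 1.79 to 1.95. For hsa_circ_16673, with a higher mean in both resistant groups, the difference between the changes was -0.02 ± 0.29 (adjusted p = 1.00). The differences of hsa_circ_2642 (0.57, adjusted p = 0.375) and hsa_circ_2643 (-0.70, adjusted p = 0.420) did not pass the test. Cell line, drug and resistance differ together in this contrast and cannot be told apart.

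**Figure D3:**
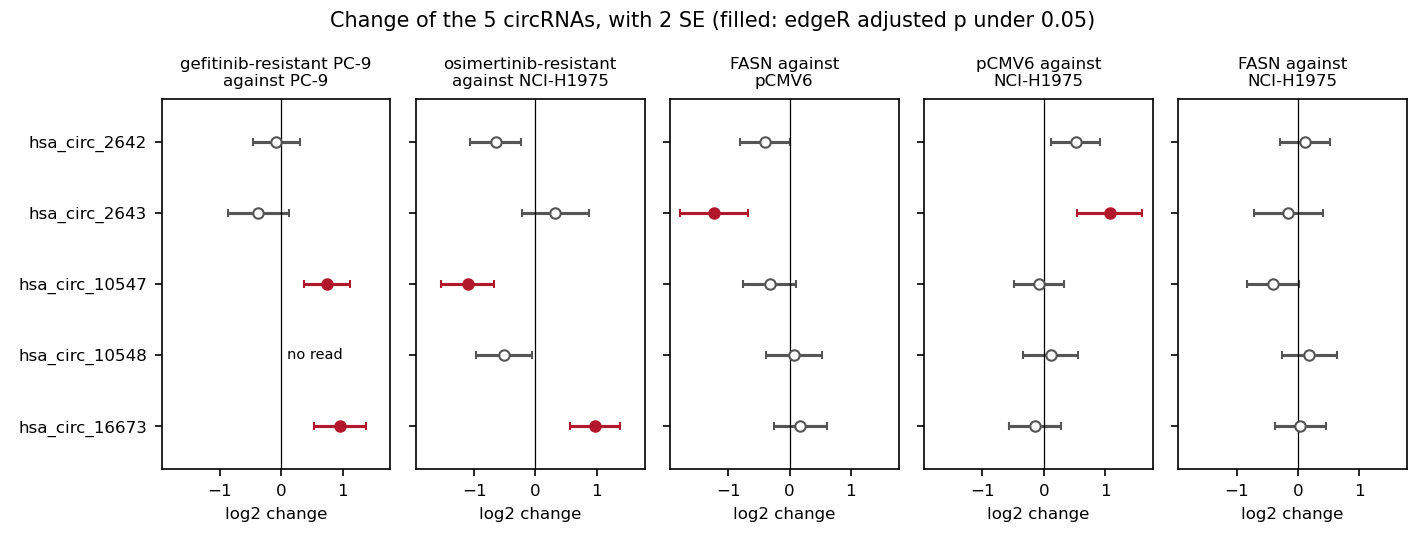
Log2 change (horizontal axis) of each of the 5 circRNAs in 5 comparisons; points are the changes, lines 2 SE, and filled points have an edgeR adjusted p under 0.05. hsa_circ_10547 lies right of 0 in gefitinib-resistant PC-9 (0.75) and left of it in osimertinib-resistant NCI-H1975 (-1.10), while hsa_circ_16673 lies right of 0 in both (0.96 and 0.98).

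hsa_circ_2643 was the 1 member called in the comparisons of transfected cells. In FASN against pCMV6 cells it averaged 343 ± 53.3 CPM in FASN cells and 798 ± 324 CPM in pCMV6 cells (SD, n = 3 each), with all FASN libraries lower. The log2 change was -1.23 ± 0.28 (SE, edgeR quasi-likelihood adjusted p = 0.00540), or 0.426 times the pCMV6 level. In pCMV6 against NCI-H1975 it averaged 798 ± 324 CPM in pCMV6 cells and 379 ± 35.2 CPM in NCI-H1975, with all pCMV6 libraries higher. That log2 change was 1.07 ± 0.27 (adjusted p = 0.0222), or 2.11-fold. In each of these comparisons 1 of the 5 was called. The share of all tested circRNAs called was 0.316% for FASN against pCMV6 and 0.36% for pCMV6 against NCI-H1975. Ranges did not overlap for 1 of the 5 in FASN against pCMV6 (12% of all tested circRNAs) and for 2 of the 5 in pCMV6 against NCI-H1975 (12.9%).

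Both results for hsa_circ_2643 rest on the same pCMV6 libraries, of which replicates 1 and 3 stood at 1018 and 949.7 CPM and replicate 2 at 425 CPM. For FASN against pCMV6 the call was lost without pCMV6 replicate 1 (log2 change -0.92, edgeR quasi-likelihood adjusted p = 0.563), pCMV6 replicate 3 (-1.01, 0.257), FASN replicate 1 (-1.17, 0.108) or FASN replicate 2 (-1.08, 0.210). For pCMV6 against NCI-H1975 it was kept without pCMV6 replicate 2 (1.29, adjusted p = 0.0102) and lost without any other library, at log2 changes of 0.79 to 1.07 and adjusted p-values of 0.185 to 0.569. Both calls were also lost with no filter. The plasmid and G418, which NCI-H1975 cells without a code did not receive, cannot be told apart. FASN cells, which also received G418, stood at 343 ± 53.3 CPM against 379 ± 35.2 CPM in NCI-H1975. That log2 change was -0.15 ± 0.28, with overlapping ranges, and was not called. Of the transfected groups, the pCMV6 group alone lay above NCI-H1975, and the cause of this was not tested.

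The other 4 did not pass the test in either comparison. In FASN against pCMV6 the log2 changes were -0.40 ± 0.20 for hsa_circ_2642, -0.33 ± 0.21 for hsa_circ_10547, 0.08 ± 0.23 for hsa_circ_10548 and 0.18 ± 0.21 for hsa_circ_16673 (SE, edgeR quasi-likelihood adjusted p from 0.624 to 0.993). In pCMV6 against NCI-H1975, hsa_circ_2642 averaged 1353 ± 134 CPM against 942 ± 76.2 CPM with all pCMV6 libraries higher, but its log2 change of 0.52 ± 0.20 missed the threshold (adjusted p = 0.453). The changes of hsa_circ_10547, hsa_circ_10548 and hsa_circ_16673 there lay between -0.14 and 0.11. In FASN against NCI-H1975 none of the 5 was called, against 0% of all tested circRNAs: the edgeR test called 0 circRNAs and DESeq2 0, and 336 had an unadjusted p under 0.05. The largest member change there was that of hsa_circ_10547, -0.41 ± 0.21 (adjusted p = 1), with all FASN libraries lower. It was the 1 member of 5 whose ranges did not overlap there, against 9.71% of all tested circRNAs.

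The circRNAs most like each member were sought by the Pearson correlation of log2 CPM over the 21 libraries, against the 9174 other tested circRNAs. These correlations are descriptions: the libraries share cell lines, and most of the variation is that between lines. hsa_circ_2642 was most like hsa_circ_6760 (r = 0.970) and hsa_circ_2643 most like hsa_circ_2642 (r = 0.969), then hsa_circ_6760 (r = 0.965). hsa_circ_6760 likewise had 0 reads in NL20, and stood at 488 CPM in NCI-H1975 and 803 CPM in PC-9. hsa_circ_10547 was most like hsa_circ_7314 (r = 0.956), which had 39 reads in NCI-H1975, 109 in PC-9 and 0 in NL20.

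The circRNA closest to hsa_circ_10548 was hsa_circ_6047 (r = 0.966), which also had 0 reads in both PC-9 groups. It had 154 reads in NCI-H1975 and 99 in NL20. Between hsa_circ_10547 and hsa_circ_10548 r was -0.46, the lowest of any pair of members. hsa_circ_16673 was most like hsa_circ_16677 (r = 0.95), 4 numbers on in the table.

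Many circRNAs numbered near hsa_circ_2642, hsa_circ_2643 and hsa_circ_16673 had no read in NL20, a feature looked at after the values were seen. The numbers were given library by library as circRNAs first appeared, and the order within a library is not given in the sources used here, so near numbers are not known to be near in the genome. The first library was pCMV6 replicate 1 of NCI-H1975, so every circRNA numbered from it has a read in a cancer library. Of its 19494 circRNAs, 29.6% had no NL20 read, and these formed 3631 runs of consecutive numbers with a median length of 1. The run that holds hsa_circ_2642 and hsa_circ_2643 went from 2640 to 2684, 45 circRNAs with both members included, and was the longest. It had 5570 reads in the cancer libraries, the most of any run, but the members, chosen in part for abundance, gave most of them. Without the members it had 1783 reads and ranked 4. The run from 16674 to 16683 follows hsa_circ_16673, which itself had 4 reads in NL20. It held 10 circRNAs and 986 reads and ranked 6 by length; its first, hsa_circ_16674, had 42 reads, too few to be tested. Beside hsa_circ_10547 and hsa_circ_10548, which were read in NL20, hsa_circ_10546 had 10 reads, 2 of them in NL20, and hsa_circ_10549 had 408 reads, 14 of them in NL20.

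**Figure D4:**
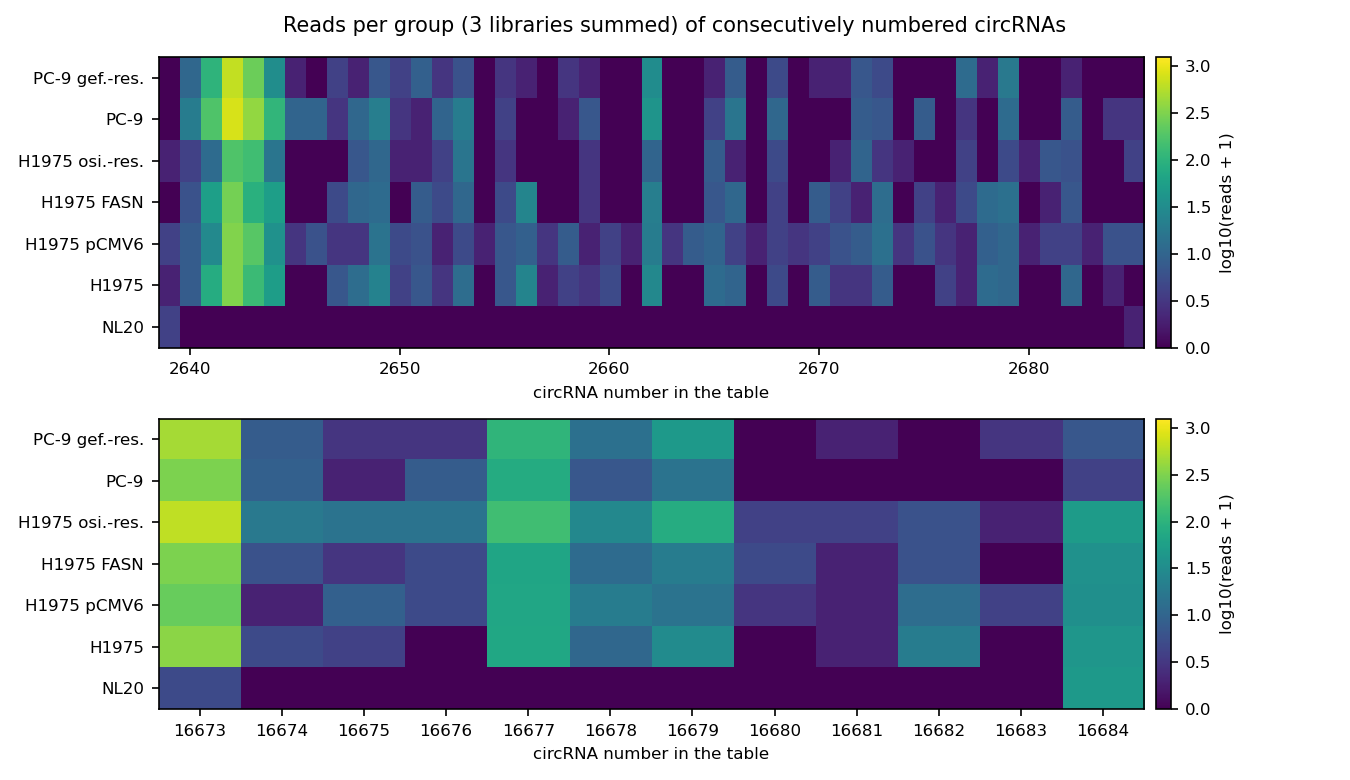
Reads of consecutively numbered circRNAs (horizontal axis, the table's own numbers) summed over the 3 libraries of each group (rows), coloured by log10(reads + 1). From 2640 to 2684 and from 16674 to 16683 the NL20 row is at 0 throughout, which defines these runs. The circRNAs were numbered from a pCMV6 library, so the pCMV6 row has reads throughout. In the cancer groups hsa_circ_2642 is brightest in the top stretch and hsa_circ_16677 in the bottom one. hsa_circ_16673, left of the bottom stretch, had 4 reads in NL20.

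The circRNA just before the pair, hsa_circ_2641, had 452 reads and fell in osimertinib-resistant cells. It stood at 80.7, 23.0 and 9.53 CPM in osimertinib-resistant NCI-H1975, against 240.1, 160.4 and 306.5 CPM in NCI-H1975, so the ranges did not overlap. The log2 change was -2.61 ± 0.53 (SE, edgeR quasi-likelihood adjusted p = 0.000152), and -2.38 without osimertinib-resistant replicate 2 (adjusted p = 0.00454). The circRNA just after the pair, hsa_circ_2644, had 297 reads and was not called in that comparison (log2 change -1.59 ± 0.58, adjusted p = 0.134). It stood at 80.7, 0 and 66.7 CPM in osimertinib-resistant NCI-H1975, the 0 being replicate 2. In NCI-H1975 it stood at 144, 249.6 and 72.6 CPM, so the ranges overlapped.

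hsa_circ_16677, the circRNA most like hsa_circ_16673, rose in osimertinib-resistant cells. It was picked by its correlation over libraries that include those compared here. A change in the direction of hsa_circ_16673 was therefore partly built in, and the p-values do not allow for that. It stood at 302.6, 482 and 648 CPM in osimertinib-resistant NCI-H1975, against 202, 152 and 258 CPM in NCI-H1975, with a log2 change of 1.22 ± 0.37 (SE, edgeR quasi-likelihood adjusted p = 0.0411). In resistant replicate 2, where hsa_circ_16673 was at its lowest, hsa_circ_16677 lay above all NCI-H1975 libraries. Leaving out 1 library kept its call in 1 of 6 fits, and without replicate 2 the log2 change was 1.21 (adjusted p = 0.117). The call was also lost with no filter (adjusted p = 0.942), with hsa_circ_11052 removed before scaling (0.0524) and with a replicate block (0.0541). In gefitinib-resistant PC-9 its log2 change was 0.68 ± 0.37 (adjusted p = 0.491), with all resistant libraries higher.

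hsa_circ_16672, numbered just before hsa_circ_16673, fell in gefitinib-resistant PC-9, where hsa_circ_16673 rose. It had 0 reads in gefitinib-resistant cells, against 103, 36.5 and 119 CPM in PC-9, from 25 reads. Set against a floor of 3 reads over the resistant libraries, it was at least 6.94-fold lower there (edgeR quasi-likelihood adjusted p = 0.0286). Leaving out 1 library kept the call in 1 of 6 fits, without PC-9 replicate 2 (adjusted p = 0.0463), and otherwise gave adjusted p-values of 0.111 to 0.198. The call was also lost with no filter (adjusted p = 0.572).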

How the data were processed

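The circular RNA was purified from total RNA, and made into libraries, by a sequencing provider, per the labels' protocols. The authors deposited whole-number read counts per circRNA for 21 libraries, without normalization. The submitters' processing notes name hg38, HISAT2 and DESeq2 without versions or roles. How circRNAs were called is not given in the sources used here. All count columns were matched to samples by name.

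edgeR 4.0.16 (R 4.3.3) was run on these counts. Its filterByExpr step required at least 5 reads in enough libraries and 15 in total. Library sizes were scaled by TMM, the trimmed mean of M values. A single robust quasi-likelihood fit held 7 group means. Adjustment was over all 9175 circRNAs within a comparison. SEs were derived from each change and its F statistic. A prior count of 2 entered log2 CPM. The code was tested on simulated data. Ratios of reads were compared by exact permutation tests (SciPy 1.17.1), adjusted over 11 tests. Those between NCI-H1975 and PC-9 are described without their p, since levels in the lines chose the members. Alternatives were DESeq2 1.42.0, other scalings and filters, each comparison's 6 libraries alone, a replicate block and each library left out.

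The members and tests were chosen with earlier results of these data known. Beside the members, the text names the most correlated circRNA of each and the circRNAs numbered just before and after them. hsa_circ_11052 is named where scaling turns on it.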

Additional observations from a re-analysis of the deposited data

Results flagged for a closer look

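The change of hsa_circ_10547 differed between the resistant lines. It rose in gefitinib-resistant PC-9 relative to PC-9 (log2 change 0.75) and fell in osimertinib-resistant NCI-H1975 relative to NCI-H1975 (-1.10), and the difference between these changes was 1.85 on the log2 scale (edgeR quasi-likelihood adjusted p = 2.27e-07). In both lines the resistant libraries all lay on 1 side of the libraries without a resistance code, 3 of 3 higher in PC-9 and 3 of 3 lower in NCI-H1975. The difference stayed between 1.79 and 1.95 when any 1 of the 12 libraries was left out, and between 1.79 and 1.92 under 6 other settings, and was called in all of them. The contrast was added after the data were seen.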

How the results depend on the processing

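The number of the 5 circRNAs called was 2 in gefitinib-resistant PC-9, 2 in osimertinib-resistant NCI-H1975, 1 in FASN against pCMV6, 1 in pCMV6 and 0 in FASN cells, the last pair each against NCI-H1975. Leaving out 1 library gave 0 to 2, 2 to 2, 0 to 1, 0 to 1 and 0 to 0 in that order. The constant 2 in osimertinib-resistant cells hides an exchange. Without resistant replicate 1, hsa_circ_16673 lost its call (edgeR quasi-likelihood adjusted p = 0.323) and hsa_circ_2642 gained one (0.00501). A minimum count of 10 gave the same exchange. With no filter on low counts the number called was 0, 1, 0, 0 and 0. With a minimum count of 10 it was 1 in gefitinib-resistant PC-9, and with the 6 libraries alone 1 in osimertinib-resistant cells. The other settings stayed within 1.5 times the counts given. The cause of these losses was not tested.

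Samples with the same replicate number did not deviate together (correlations of deviations from group means -0.02 to 0.03), so this check gave no sign of a pairing. It cannot exclude one, as counting error in circRNAs with few reads weakens such correlations. With a replicate block the number of the 5 called was 2, 2, 1, 1 and 0, and 111, 208, 24, 32 and 0 circRNAs of all were called. The call of hsa_circ_16677 in osimertinib-resistant cells was lost with the block.

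Over all circRNAs tested, 124, 231, 29, 33 and 0 were called in the same order. With no filter the numbers were 16, 53, 8, 12 and 0. DESeq2 called 211 in gefitinib-resistant PC-9 and 53 in pCMV6, and the 6 libraries alone gave 233 in gefitinib-resistant PC-9. Leaving out 1 library gave 48 to 72, 115 to 176, 14 to 20, 9 to 21 and 0 to 1.

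The sign turned for 13 log2 changes, none of them called. Leaving out 1 library gave -0.20 to 0.036 for hsa_circ_2642 in gefitinib-resistant PC-9 and -0.19 to 0.60 for hsa_circ_2643 in osimertinib-resistant cells. For FASN against NCI-H1975 it gave -0.075 to 0.33 for hsa_circ_2642, -0.017 to 0.36 for hsa_circ_10548 and -0.065 to 0.13 for hsa_circ_16673. For hsa_circ_10548 it gave -0.090 to 0.30 in FASN against pCMV6 and -0.043 to 0.22 in pCMV6 against NCI-H1975. With no filter the change was -0.053 for hsa_circ_10548 in pCMV6 against NCI-H1975 and -0.026 for hsa_circ_16673 in FASN against NCI-H1975. With no scaling factors it was 0.020 for hsa_circ_10547 in pCMV6 against NCI-H1975. The differences in log2 ratio kept their sign under all alternatives; with 3 libraries against 3 or fewer, none could pass the threshold. A total of 11 reads of hsa_circ_10547 and 4 of hsa_circ_16673 in NL20 limits what can be said of their levels there.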

Other observations

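Neighbouring numbers in the table tended to share a pattern. Over circRNAs that averaged 5 or more reads a library, the median Pearson correlation of log2 CPM across the 21 libraries was 0.275 for circRNAs 1 number apart (1082 pairs), 0.145 for those 5 apart and 0.0439 for those 1000 apart (761 pairs). Over those that averaged 20 or more it was 0.510 at 1 apart (97 pairs), 0.101 at 100 apart and 0.256 at 1000 apart (34 pairs). For the members, r was 0.969 between hsa_circ_2642 and hsa_circ_2643 but -0.46 between hsa_circ_10547 and hsa_circ_10548. These are descriptions over libraries that share cell lines.

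pCMV6 replicate 1 and osimertinib-resistant replicate 2 had the same total of 110456 reads. They were not copies of each other: of 27078 circRNAs with a read in either, 911 had the same count above 0 in both.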
